A study of Homo sapiens with 8 samples.

Results

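The transcriptome of 5637 cells was set against that of UM-UC3 cells, both established human bladder cancer lines, at every melatonin dose at which the lines were sequenced. The culture medium was RPMI 1640 for 5637 and MEM for UM-UC3, each with fetal bovine serum, and both lines carry the label wild type. Each line received melatonin at 0 mM (the solvent DMSO alone), 1, 2 and 4 mM for 24 h, with 1 poly(A) RNA-seq library per line and dose. All 8 libraries of the series entered the comparison, 4 of 5637 and 4 of UM-UC3. Values were read as FPKM (fragments scaled by transcript length in kilobases and by the mapped fragments of the library). Of the 60612 genes listed, 12649 averaged at least 1 FPKM over the 8 libraries and were tested. The 2 lines were paired by dose and the difference was taken as 5637 minus UM-UC3 on the log2(FPKM + 1) scale, a scale that understates the differences of genes with low FPKM. A gene was called separated when its 4 paired differences had the same sign and were each at least 1, which is 2-fold. By this rule 2506 genes separated the lines, 1556 with the higher level in 5637 and 950 with the higher level in UM-UC3. The culture medium differed between the lines at every dose, so line and medium cannot be told apart. The 4 pairs are 4 different doses and not replicates of 1 condition. The p-values thus rest only on scatter over the doses, that of the gene moderated by that of all tested genes.

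The urothelium, the lining of the bladder, is a layered epithelium. Its basal cells carry keratins such as KRT5 and sit on laminin through integrin α6β4, and its luminal cells carry uroplakins and are specified by factors such as GATA3, FOXA1 and PPARG. Bladder cancers and their cell lines are often ordered along this axis and along the epithelial to mesenchymal transition, in which repressors of the ZEB and SNAI families bind E-box sequences in promoters of junction genes while vimentin and matrix genes are expressed. Bladder cancer lines also differ in somatic lesions of the RB1 and CDKN2A loci, genes of the cell cycle brake.

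The FPKM of all listed genes summed to 332961 to 395621 per library, and with no read counts used here the sequencing depth is unknown. Line took 76.7% of the sum of squares over the tested genes, dose 14.8% and the remainder 8.52%. The root mean square distance between libraries of different lines was 1.33 to 1.54 on the log2 scale, against 0.33 to 0.95 among the 5637 libraries and 0.28 to 0.75 among the UM-UC3 libraries. A factor that rescaled the libraries to a common median shifted single libraries by -0.05 to 0.06 on the log2 scale.

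1 library, that of 5637 at 4 mM, stood apart from the others in genes of UM-UC3. Among the tested genes, 55 were at most 0.05 FPKM in 5637 at 0 and 1 mM and at least 5 FPKM in all 4 UM-UC3 libraries. These genes were above 0 in 14, 6, 36 and 54 cases of 55 in the 5637 libraries at 0, 1, 2 and 4 mM. The low values at 0 and 1 mM follow from the rule that picked the genes, and only those at 2 and 4 mM are free of it. In the 5637 library at 4 mM their median level was 0.419 FPKM, which was 3.71% of their level in UM-UC3 at 0 mM (quartiles 3.0% and 4.38%), 3.52% of that at 1 mM, 4.04% of that at 2 mM and 4.42% of that at 4 mM. At 2 mM the 5637 library held a median of 0.0678% to 0.0930% of the UM-UC3 levels. In the mirror direction, 97 genes of 5637, picked by the same rule with the lines exchanged, reached medians of at most 0.0589% in any UM-UC3 library. MAGEA4, an X-linked cancer-testis antigen, had 0, 0, 0.0202 and 1.38 FPKM in 5637 at 0, 1, 2 and 4 mM, against 55.9, 58.5, 52 and 49.4 FPKM in UM-UC3. COL3A1, the chain of type III collagen, was listed at 0 in 5637 at 0, 1 and 2 mM and reached 0.325 FPKM at 4 mM, which lies above the 0.0990 FPKM of UM-UC3 at 4 mM and below the 7.64 FPKM of UM-UC3 at 0 mM. Whether the 5637 library at 4 mM holds a share of UM-UC3 RNA or reads was not tested, and the counts over all genes that this library can move are also given without the pair at 4 mM, an alternative chosen after seeing the data.

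**Figure D1:**
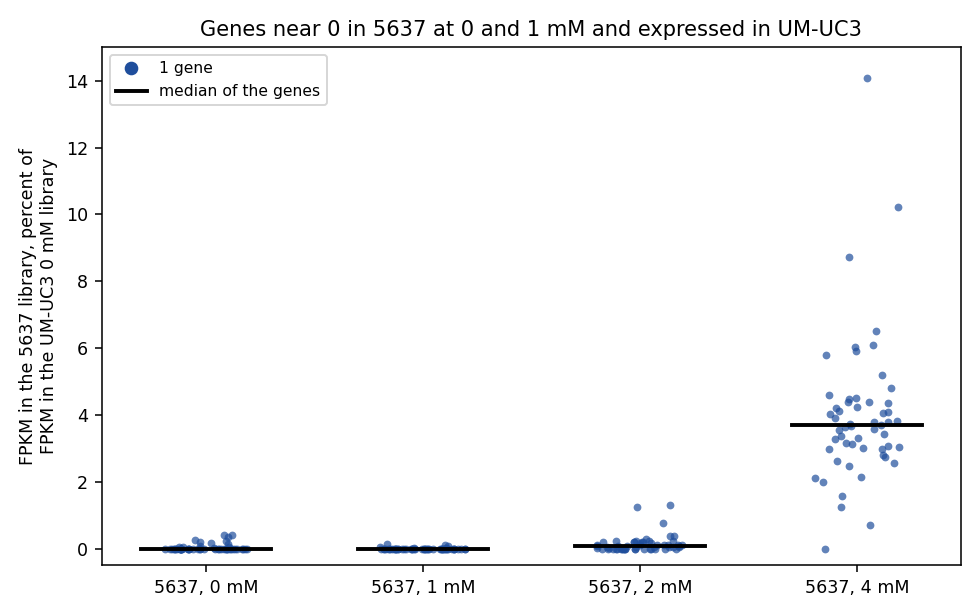
Genes near 0 in 5637 at 0 and 1 mM in the 4 libraries of 5637: each point is 1 of the 55 genes, the x axis gives the library by its dose in mM, the bar is the median, and the y axis is the FPKM in 5637 as a percentage of the FPKM in UM-UC3 at 0 mM. The median is 3.71% at 4 mM and at most 0.0678% at the lower doses. The values at 0 and 1 mM are low by the rule that picked the genes.

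With the 4 mM pair in the fit, 7587 of the 12649 tested genes (60.0%) passed limma's paired test at a Benjamini-Hochberg adjusted p under 0.05, 4210 with higher levels in 5637 (33.3%) and 3377 with higher levels in UM-UC3 (26.7%). All 2506 separated genes were among them, but the rule and the test use the same 4 differences and are not independent. The separated genes were 12.3% of the tested genes for 5637 and 7.51% for UM-UC3. Without the pair at 4 mM, 1944 and 1348 genes were separated and 4749 and 3987 passed the test, higher in 5637 and in UM-UC3. Without the pair at 0, 1 or 2 mM, 1738, 1627 and 1591 genes were separated toward 5637 and 1058, 983 and 1037 toward UM-UC3. A rule that must hold at every dose can only gain genes when a pair is dropped, so some rise is set by the rule. The same holds for the counts without overlap and at a minimum difference given next. The 4 levels of 5637 lay entirely above the 4 of UM-UC3 for 3595 genes (28.4%) and entirely below them for 2869 genes (22.7%), and for 4872 and 3995 genes over the 3 lower doses. The median difference of all tested genes was 0.10. The smallest of the 4 differences was at least 4 for 80 genes higher in 5637 and for 12 higher in UM-UC3, and at least 5 for 40 and 3 genes. Over the 3 lower doses these counts were 122 and 35 genes at 4, and 55 and 12 genes at 5, so the imbalance was smaller without the 4 mM pair. Of protein-coding genes 19.8% were separated, and of long non-coding RNAs 23.9%.

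In the DMSO pair alone, 2490 genes (19.7%) were at least 2-fold higher in 5637 and 2082 (16.5%) at least 2-fold higher in UM-UC3. With 1 library per line at this dose, these counts have no replicate check. Of them, 62.5% of the 5637 genes and 45.6% of the UM-UC3 genes kept a 2-fold difference at every dose. The differences of the DMSO pair had a Pearson r across genes of 0.960 with those at 1 mM, 0.916 with those at 2 mM and 0.737 with those at 4 mM, where genes are not independent replicates. Of these genes 83 were 2-fold apart in the other direction at another dose, 79 of them at 4 mM. Genes near the threshold were sought among protein-coding genes that passed limma's paired test and averaged at least 20 FPKM. The nearest were taken by the smallest of their 4 differences, so other doses can lie further from the threshold. Just inside it were AURKB, a mitotic kinase with 40.4 to 58 FPKM in 5637 and 4.12 to 28.5 FPKM in UM-UC3, ADIPOR1, an adiponectin receptor with 37.3 to 62.1 FPKM in 5637 and 17.4 to 26 FPKM in UM-UC3, and the N-cadherin gene CDH2. Just outside it were ZNF207 with 89.5 to 119 FPKM in 5637 and 31.8 to 59.1 FPKM in UM-UC3, the nucleoporin gene NUP62 with 39.3 to 61.8 FPKM in 5637 and 14.9 to 19.2 FPKM in UM-UC3, and TAF7, a subunit of the general transcription factor TFIID, with 27.4 to 50.1 FPKM in 5637 and 8.75 to 13.3 FPKM in UM-UC3.

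The 12 genes with the widest gap toward 5637 included keratin and epithelial surface genes. The KRT19 keratin gene (chr17:41523617-41528308) had 1229, 939, 688 and 231 FPKM in 5637 at 0, 1, 2 and 4 mM, the order used for all values below, against 0.192, 0.294, 0.169 and 0.177 FPKM in UM-UC3 (difference 9.08 ± 0.37, limma adjusted p = 2.10e-05). Here and below ± is limma's moderated standard error, which combines the gene's own scatter with that of all tested genes. In each of the 12 genes the lowest 5637 level lay far above the highest UM-UC3 level, which follows largely from the rule that picked them. KRT5 (chr12:52514575-52520530), the basal keratin, had 639, 583, 291 and 120.3 FPKM in 5637 and 0.0682 to 0.132 FPKM in UM-UC3 (8.27 ± 0.40, limma adjusted p = 3.60e-05). KRT6A (chr12:52487176-52493257), a keratin of activated and squamous epithelium, had 317, 182, 98.4 and 146 FPKM in 5637 and 0 to 0.0721 FPKM in UM-UC3, but its near-identical copies KRT6B and KRT6C can share its reads. LCN2 (chr9:128149071-128153453), which encodes an iron-siderophore binding protein of inflamed epithelia, had 130.2 to 392 FPKM in 5637 and 0.0489 to 0.422 FPKM in UM-UC3 (7.61 ± 0.31, limma adjusted p = 2.10e-05). SFN (chr1:26863149-26864456), the epithelial 14-3-3σ protein, stayed within 93.8 to 111 FPKM in 5637 and 0.0213 to 0.0918 FPKM in UM-UC3 (6.61 ± 0.12, limma adjusted p = 5.07e-06).

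The others in this group were secreted and membrane genes. THBS1 (chr15:39581079-39599466), the matrix glycoprotein thrombospondin-1, had 86.4 to 185 FPKM in 5637 and 0.0343 to 0.0721 FPKM in UM-UC3, a difference of 6.92 ± 0.22. S100A9 (chr1:153357854-153361023), a subunit of calprotectin, had 371, 134, 154 and 83 FPKM in 5637 and was listed at 0 in all 4 UM-UC3 libraries (limma adjusted p = 2.65e-05). MAL2 (chr8:119165034-119245673), needed for transcytosis in polarised epithelial cells, had 82.2 to 139 FPKM in 5637 and 0.0233 to 0.0827 FPKM in UM-UC3. EPCAM (chr2:47345158-47387601), the epithelial cell adhesion molecule, had 79.1, 93.5, 119 and 114 FPKM in 5637 and 0.067, 0.165, 0.0286 and 0.0731 FPKM in UM-UC3 (6.55 ± 0.16, limma adjusted p = 5.07e-06). CD24 (chr6:106969831-106975627), a small mucin-like surface protein, had 173 to 266 FPKM in 5637 and 0.983 to 1.61 FPKM in UM-UC3. A level of 0 in every library of 1 line with a mean of at least 5 FPKM in the other was found for 39 genes listed at 0 in UM-UC3, among them HOXA9, ITGB6, S100A9 and UGT1A6, and for 2 listed at 0 in 5637, the non-coding genes AL109763.1 and AC104009.1. Over the 3 lower doses the counts were 53 and 34. A rule of 0 in every library loosens when any library is dropped, so some rise is set by the rule. The count of 2 depends on the 4 mM pair, whose 5637 library holds the traces.

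**Figure D2:**
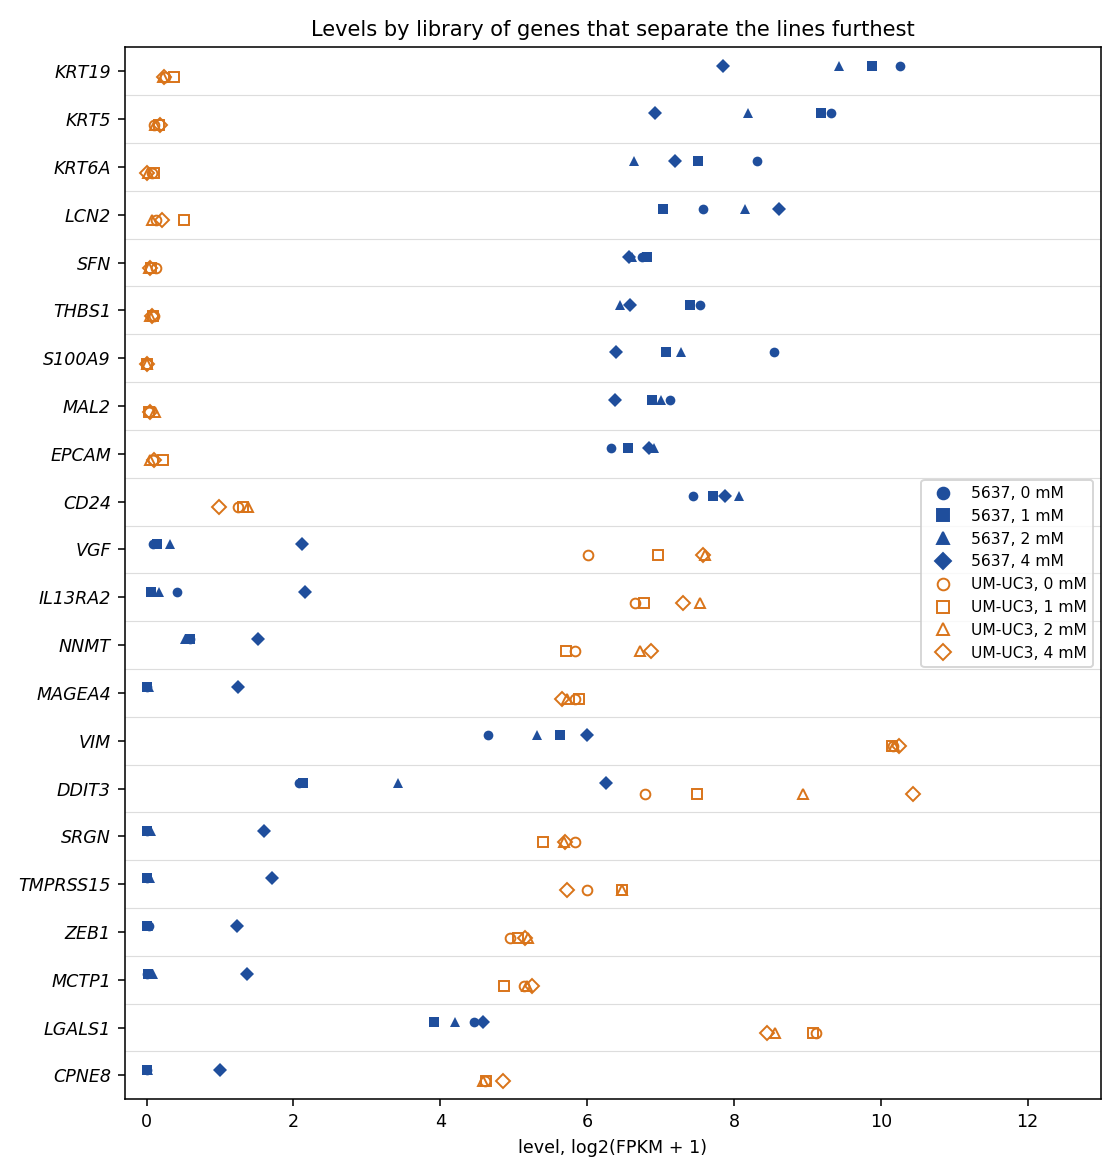
Levels of the genes described here with the widest gaps, 10 toward 5637 and 12 toward UM-UC3: the x axis is the level in log2(FPKM + 1), each row is a gene, and each point is 1 library, with 5637 filled and UM-UC3 open and a marker shape for each of the 4 doses. The points of the lines do not overlap in any of the 22 rows, which follows largely from picking genes with wide gaps at every dose. The 5637 point at 4 mM is the highest of that line in all 12 rows of UM-UC3 genes.

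The 12 genes with the widest gap toward UM-UC3 held a secreted neuropeptide precursor, a decoy cytokine receptor, a cancer-testis antigen and the mesenchymal pair VIM and ZEB1. VGF (chr7:101162509-101165569), a granin-like precursor of neuropeptides, had 0.0624, 0.103, 0.247 and 3.34 FPKM in 5637 and 63.8, 124, 194 and 191 FPKM in UM-UC3 (difference -6.38 ± 0.31, limma adjusted p = 3.42e-05). IL13RA2 (chrX:115003975-115019977), a high-affinity IL-13 receptor without the usual signalling tail, had 0.329, 0.0445, 0.126 and 3.45 FPKM in 5637 and 99.2, 109, 185 and 157 FPKM in UM-UC3 (-6.37 ± 0.34, limma adjusted p = 4.40e-05). In both genes, as in every other gene of this group, the highest of the 5637 levels was at 4 mM, the library with the traces of UM-UC3 genes. VIM (chr10:17228241-17237593), the intermediate filament vimentin, had 24, 48.7, 38.9 and 63 FPKM in 5637 and 1149, 1139, 1157 and 1211 FPKM in UM-UC3, where it hardly moved over the doses (-4.79 ± 0.23, limma adjusted p = 3.36e-05). ZEB1 (chr10:31318495-31529814), the zinc finger repressor of epithelial genes, had 0.0193, 0.00572, 0.0179 and 1.34 FPKM in 5637 and 29.8, 32.2, 35.5 and 34.8 FPKM in UM-UC3 (-4.76 ± 0.23, limma adjusted p = 3.60e-05). Vimentin RNA was therefore measurable in all 5637 libraries, whereas ZEB1 was at most 0.0193 FPKM in 5637 at 0, 1 and 2 mM. NNMT (chr11:114257787-114313536), which methylates nicotinamide, had 0.434 to 1.86 FPKM in 5637 and 51.4 to 116 FPKM in UM-UC3 (-5.48 ± 0.20, limma adjusted p = 1.86e-05). LGALS1 (chr22:37675636-37679802), the secreted lectin galectin-1, had 21.1, 14.1, 17.3 and 22.9 FPKM in 5637 and 557, 541, 377 and 349 FPKM in UM-UC3 (-4.52 ± 0.22, limma adjusted p = 3.61e-05). DDIT3 (chr12:57516588-57521737), the stress-response transcription factor CHOP, was higher at each higher dose in both lines, with 3.22, 3.39, 9.74 and 75.8 FPKM in 5637 and 110.0, 179, 488 and 1391 FPKM in UM-UC3 (-4.94 ± 0.24, limma adjusted p = 3.60e-05). Its 5637 level at 4 mM comes from the library with the traces, whose part in the rise was not tested.

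The remaining genes of this group were close to 0 in 5637 below 4 mM. SRGN (chr10:69088103-69104805), the granule proteoglycan serglycin, had 0, 0, 0.0475 and 2.04 FPKM in 5637 and 41.2 to 56.2 FPKM in UM-UC3. TMPRSS15 (chr21:18269116-18485879) encodes enteropeptidase, the intestinal activator of trypsinogen, and had 0, 0, 0.0367 and 2.25 FPKM in 5637 and 62.8, 88.1, 87.5 and 52.1 FPKM in UM-UC3 (difference -5.73 ± 0.41). MCTP1 (chr5:94703741-95284575), a calcium-binding C2-domain membrane protein, had 0, 0.0107, 0.0628 and 1.58 FPKM in 5637 and 28.1 to 37 FPKM in UM-UC3. CPNE8 (chr12:38646822-38907430), a member of the calcium-dependent copine family, had 0, 0, 0.0106 and 0.991 FPKM in 5637 and 23 to 28 FPKM in UM-UC3. MAGEA4 (chrX:151912509-151925170), whose values are given above, differed by -5.46 ± 0.27. Without the pair at 4 mM all 12 genes passed limma's test, and their differences were -6.77 to -4.60.

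Because ZEB1 and the junction genes lay at opposite ends of the comparison, 4 RefSeq promoter windows (GRCh38.p14, 250 bases before to 50 bases after the start of transcription) are printed, 5′ to 3′ on the strand of the gene. The first 3 belong to epithelial genes that were near 0 in UM-UC3, the tight junction claudin gene CLDN7 (chr17:7262429-7262728, minus strand), the polarity gene CRB3 (chr19:6464021-6464320, plus strand) and AP1M2, the epithelial μ1B clathrin adaptor (chr19:10587263-10587562, minus strand), and the last to VIM (chr10:17227991-17228290, plus strand). Capitals mark CAGGTG or CACCTG, the 2 strands of the E-box form that ZEB and SNAI factors are known to bind. Of these factors ZEB1 was higher in UM-UC3, but SNAI2 was higher in 5637, the line with the higher junction genes. SNAI2 had 42.4 to 50.9 FPKM in 5637 and 0.263 to 1.04 FPKM in UM-UC3. Repression by either factor was not tested.
CLDN7: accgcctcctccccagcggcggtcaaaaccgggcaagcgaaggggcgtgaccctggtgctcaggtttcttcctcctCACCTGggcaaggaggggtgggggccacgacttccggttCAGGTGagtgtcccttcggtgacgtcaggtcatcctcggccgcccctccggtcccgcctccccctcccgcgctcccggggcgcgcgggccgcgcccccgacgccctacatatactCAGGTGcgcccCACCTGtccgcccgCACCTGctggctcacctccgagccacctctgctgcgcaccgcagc
CRB3: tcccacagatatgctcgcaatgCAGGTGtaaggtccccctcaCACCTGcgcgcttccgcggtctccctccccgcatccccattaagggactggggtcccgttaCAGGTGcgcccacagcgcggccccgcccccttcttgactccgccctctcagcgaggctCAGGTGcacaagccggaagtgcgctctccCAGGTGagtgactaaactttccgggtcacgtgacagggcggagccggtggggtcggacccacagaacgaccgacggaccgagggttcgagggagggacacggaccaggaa
AP1M2: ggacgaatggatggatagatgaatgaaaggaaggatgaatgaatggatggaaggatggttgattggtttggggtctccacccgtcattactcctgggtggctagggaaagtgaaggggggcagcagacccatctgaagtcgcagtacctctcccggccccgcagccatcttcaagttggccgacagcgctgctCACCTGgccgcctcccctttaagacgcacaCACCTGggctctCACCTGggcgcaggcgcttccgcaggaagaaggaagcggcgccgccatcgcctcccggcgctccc
VIM: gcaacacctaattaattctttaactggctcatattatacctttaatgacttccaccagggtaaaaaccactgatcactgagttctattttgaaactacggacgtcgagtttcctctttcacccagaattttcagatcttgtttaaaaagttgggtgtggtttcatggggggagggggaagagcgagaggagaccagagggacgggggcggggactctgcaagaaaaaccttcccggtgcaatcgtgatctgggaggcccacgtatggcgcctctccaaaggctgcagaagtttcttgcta
The CLDN7 and CRB3 windows each held 5 of these E-boxes, the AP1M2 window 3 and the VIM window 0. The 3 epithelial windows were picked after the matches were counted, for holding many of them. A second CLDN7 window in the table held 0, and 10 of the 27 windows of junction genes held at least 1. Of the 35116 windows of the RefSeq table, 7231 (20.6%) held at least 1 and 33 (0.094%) held 5 or more. Among the tested protein-coding genes, 9269 of 11449 had an entry, and 18.2% of their 13643 windows held an E-box. Only 17 of the 28 tested junction genes and 9 of the 19 tested epithelial regulators had an entry, so no share was read for these groups. A match describes letters only and is not a binding site.

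CLDN7 had 35.4, 24, 40.1 and 34.7 FPKM in 5637 and 0.0568, 0.0346, 0.039 and 0.0946 FPKM in UM-UC3 (difference 5.01 ± 0.17, limma adjusted p = 1.48e-05). CRB3 had 2.5, 1.59, 4.79 and 5.64 FPKM in 5637 and 0.0265, 0, 0.0777 and 0 FPKM in UM-UC3 (2.07 ± 0.26, limma adjusted p = 8.66e-04). AP1M2 had 37.1, 36.1, 38.9 and 20.9 FPKM in 5637 and 0.204, 0.0259, 0.0171 and 0 FPKM in UM-UC3 (4.98 ± 0.18, limma adjusted p = 1.76e-05). Over all tested genes 28.4% did not overlap, with the higher levels in 5637. None of the 3 overlapped between the lines either, but they were chosen as genes near 0 in UM-UC3. The epithelial junction genes as a group moved with them: of 28 tested members 24 were higher in 5637, 1 was higher in UM-UC3 and 3 did not pass, with a median difference of 3.13 beside 0.10 for all tested genes. Over all tested genes 33.3% and 26.7% passed in these directions, the shares against which each group below is read. The E-cadherin gene CDH1 had 36.3, 46.8, 59.9 and 76.4 FPKM in 5637 and 0.02, 0.092, 0.0218 and 0.105 FPKM in UM-UC3 (5.67 ± 0.19, limma adjusted p = 1.48e-05). DSP, the desmosomal plaque protein desmoplakin, had 42.8, 51.6, 46.3 and 39.6 FPKM in 5637 and 0.0113 to 0.0708 FPKM in UM-UC3 (5.46 ± 0.14, limma adjusted p = 5.07e-06). F11R, the junctional adhesion molecule JAM-A, had 54.1 to 86.1 FPKM in 5637 and 0.347 to 0.577 FPKM in UM-UC3, and CLDN4, another claudin, had 43.9 to 86.9 FPKM in 5637 and 0.0701 to 0.135 FPKM in UM-UC3. CTNNA1, the α-catenin that links cadherins to actin, was the member with the higher level in UM-UC3, at 77.1, 72.5, 85.3 and 121 FPKM in 5637 and 216, 226, 198 and 207 FPKM in UM-UC3 (-1.27 ± 0.18, limma adjusted p = 0.00133). Without the pair at 4 mM 2 members passed in that direction.

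Of 19 tested epithelial regulators, the proteins that set epithelial identity, splicing and polarised traffic, 18 were higher in 5637 and none was higher in UM-UC3, with a median difference of 4.98. ESRP1, the epithelial splicing regulator, was nearly constant in each line, with 59.6, 62.3, 61.4 and 60.1 FPKM in 5637 and 0.412, 0.452, 0.437 and 0.319 FPKM in UM-UC3 (5.46 ± 0.12, limma adjusted p = 5.07e-06). GRHL2, the grainyhead-like activator of junction genes, had 25.6 to 30.6 FPKM in 5637 and 0 to 0.0208 FPKM in UM-UC3 (4.83 ± 0.14, limma adjusted p = 1.04e-05). The summed FPKM of the 22 listed regulators was 919 to 1123 in 5637 and 9.01 to 17.6 in UM-UC3.

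Luminal markers were higher in 5637 wherever they could be tested, in 10 of 10 genes, with a median difference of 2.85, but the defining uroplakins were low in both lines. UPK1A, UPK1B, UPK2, UPK3A and UPK3B averaged under 1 FPKM and were not tested, and UPK3A and KRT20, the keratin of umbrella cells, were listed at 0 in all 8 libraries. GATA3, the zinc finger factor of luminal cells, had 11, 10.2, 12.4 and 9.39 FPKM in 5637 and 0.562, 0.574, 0.519 and 0.221 FPKM in UM-UC3 (difference 3.0 ± 0.15, limma adjusted p = 3.61e-05). ELF3, an epithelium-specific ETS factor, had 18, 9.06, 13.2 and 8.83 FPKM in 5637 and was at or below 0.00535 FPKM in UM-UC3 (3.67 ± 0.21, limma adjusted p = 5.48e-05). KRT8, a keratin of simple epithelia, was present in both lines, at 498, 562, 606 and 278 FPKM in 5637 and 48, 55.5, 52.8 and 54 FPKM in UM-UC3 (3.13 ± 0.22, limma adjusted p = 1.05e-04). PPARG, the nuclear receptor of luminal differentiation, had 53.4, 33.2, 29.7 and 10.3 FPKM in 5637 and 7.88, 7.71, 10.1 and 5.33 FPKM in UM-UC3 (1.72 ± 0.28, limma adjusted p = 0.00241), a gap that narrowed with dose. The luminal factors and the basal keratins were thus high in the same 5637 libraries.

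Of 18 tested basal and squamous markers, 16 were higher in 5637 and none in UM-UC3, with a median difference of 3.05. TP63, whose ΔN form maintains basal cells, had 54.4, 33.3, 21 and 1.83 FPKM in 5637 and 3.16, 2.86, 0.659 and 0.249 FPKM in UM-UC3 (2.95 ± 0.43, limma adjusted p = 0.00155). CDH3, the basal P-cadherin, had 52, 47.6, 47.8 and 39.4 FPKM in 5637 and 0.0118 to 0.162 FPKM in UM-UC3 (5.46 ± 0.15, limma adjusted p = 9.18e-06), and TRIM29, an E3 ligase of basal epithelia, had 27.6 to 49.2 FPKM in 5637 and 0.0259 to 0.144 FPKM in UM-UC3. The 2 members that did not pass were CD44, the hyaluronan receptor, with 154, 166, 160.3 and 132 FPKM in 5637 and 203, 149, 125 and 70.7 FPKM in UM-UC3, and TFAP2A, an AP-2 factor, with 9.54 to 14.1 FPKM in 5637 and 8.76 to 13.3 FPKM in UM-UC3 (limma adjusted p = 0.352 and 0.361). Their levels overlapped between the lines. All 13 tested keratins passed in the direction of 5637, with a median difference of 2.64, and the summed FPKM of the 27 listed keratins was 994 to 4073 in 5637 and 109 to 213 in UM-UC3. Keratins such as KRT8 and KRT19 are also in the luminal list, and KRT5, KRT6A and KRT17 in the basal list. The counts of these groups thus share genes and are not independent. KRT17, a keratin of stressed and basal epithelium, had 253, 85.6, 58.5 and 38.4 FPKM in 5637 and at most 0.0166 FPKM in UM-UC3 (6.4 ± 0.41, limma adjusted p = 7.49e-05). KRT5, KRT17 and KRT19 all had their lowest 5637 level at 4 mM.

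**Figure D3:**
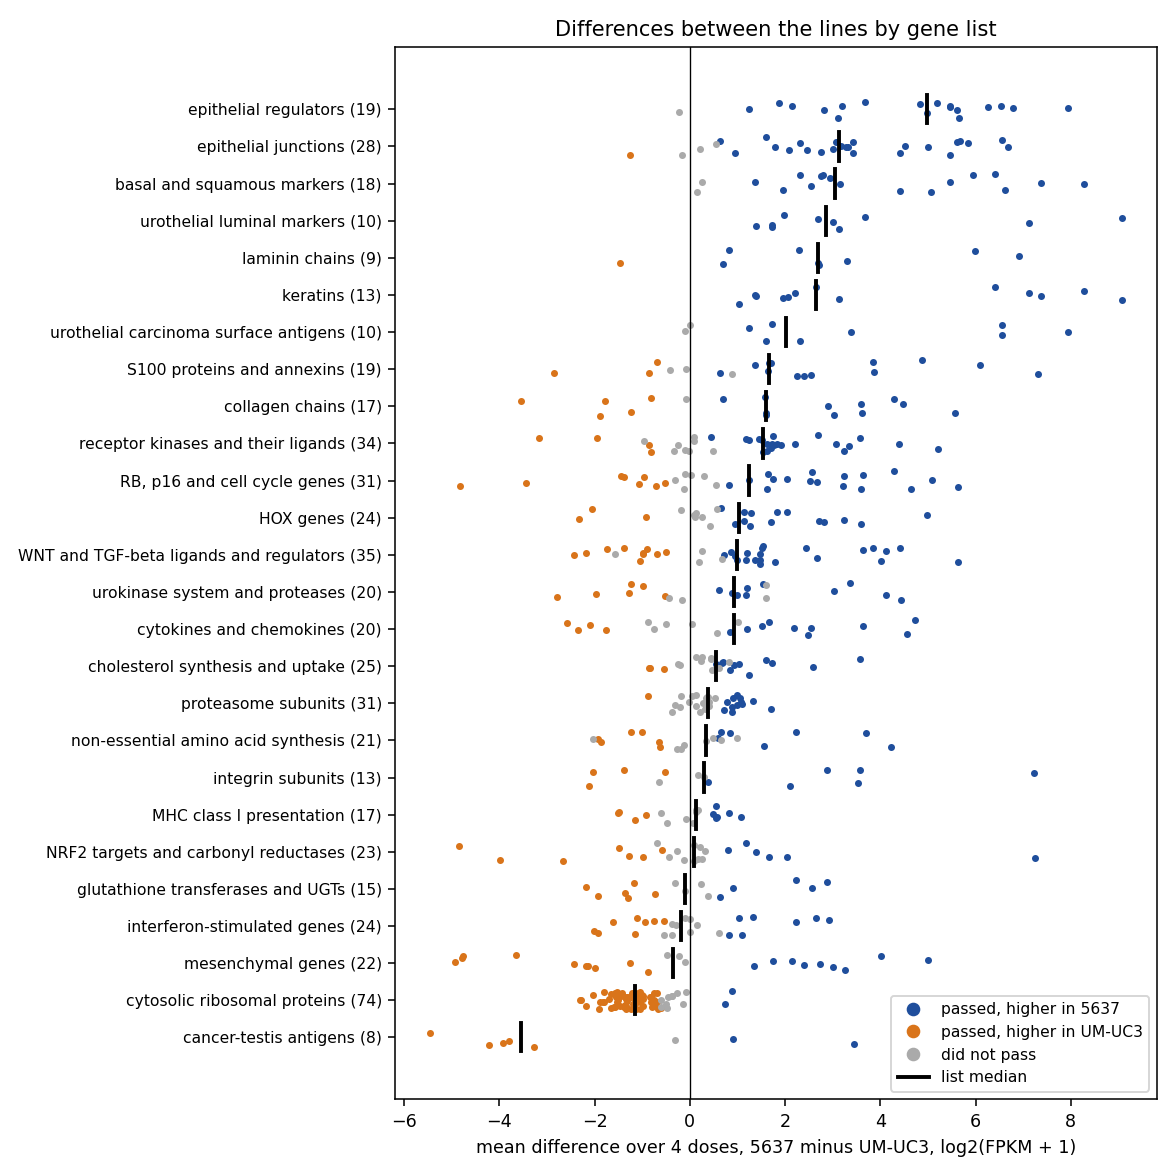
Differences of the described gene groups: the x axis is the mean difference of 5637 minus UM-UC3 in log2(FPKM + 1), each row is a group with at least 8 tested members, each point is 1 tested gene, coloured by whether it passed and in which line it was higher, and the black bar marks the median. Epithelial regulators have the highest median (4.98), and cytosolic ribosomal proteins sit mostly below 0 (median -1.16).

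The mesenchymal genes did not lie on 1 side. Of 22 tested members 9 were higher in 5637, 10 were higher in UM-UC3 and 3 did not pass, with a median difference of -0.35. On the UM-UC3 side, next to VIM and ZEB1, EMP3, an epithelial membrane protein family member, had 0.138, 0.436, 0.278 and 2.71 FPKM in 5637 and 94.4, 68, 42.9 and 22.4 FPKM in UM-UC3 (difference -4.93 ± 0.56, limma adjusted p = 5.65e-04). MSN, the membrane to actin linker moesin, had 48.6, 42.8, 35.5 and 25.4 FPKM in 5637 and 183, 151, 149 and 125 FPKM in UM-UC3 (-1.99 ± 0.14, limma adjusted p = 9.33e-05). DKK3, a secreted protein of the Dickkopf family, had 0.255 to 0.736 FPKM in 5637 and 3.06 to 10.1 FPKM in UM-UC3 (-2.18 ± 0.21, limma adjusted p = 2.92e-04). On the 5637 side SNAI2, the repressor Slug, which also serves basal cells, had 50.3, 50.9, 42.4 and 46.9 FPKM in 5637 and 0.293, 0.263, 0.63 and 1.04 FPKM in UM-UC3 (4.99 ± 0.19, limma adjusted p = 1.83e-05). FN1, fibronectin, had 99, 82.3, 79.7 and 39.6 FPKM in 5637 and 11.7, 8.12, 7.43 and 2.38 FPKM in UM-UC3 (3.25 ± 0.14, limma adjusted p = 2.25e-05). TGFBI, a TGF-β-induced matrix protein, had 126, 90.6, 64.8 and 37.3 FPKM in 5637 and 15.2, 12.9, 10.8 and 4.59 FPKM in UM-UC3 (2.74 ± 0.13, limma adjusted p = 3.29e-05), and both matrix genes were lower at each higher dose in each line. CDH13, the membrane-anchored T-cadherin, had 4.56 to 8.76 FPKM in 5637 and at most 0.00398 FPKM in UM-UC3. CDH2, N-cadherin, had 33.6, 38.4, 37.9 and 14 FPKM in 5637 and 14.4, 13.4, 10.6 and 6.51 FPKM in UM-UC3 (1.34 ± 0.16, limma adjusted p = 6.46e-04). The higher SNAI2, FN1 and CDH2 levels were thus in 5637 and the higher ZEB1 and VIM levels in UM-UC3.

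Laminins and the integrin that holds basal cells to them lay with 5637. Of 9 tested laminin chains 8 were higher in 5637 and 1, LAMB2, was higher in UM-UC3. LAMA3, the α3 chain of laminin-332, had 65.9, 65.6, 67.9 and 64.2 FPKM in 5637 and 0.0295 to 0.0794 FPKM in UM-UC3 (difference 5.99 ± 0.12, limma adjusted p = 5.07e-06). LAMB1 and LAMA5, chains of other laminins, had 34.5 to 93.7 and 10.9 to 62.1 FPKM in 5637, against 6.49 to 13.1 and 1.95 to 7.23 FPKM in UM-UC3. LAMB2, the β2 chain, had 10.4, 12.7, 11.8 and 3.11 FPKM in 5637 and 34.8, 33.6, 25.7 and 13.6 FPKM in UM-UC3 (-1.47 ± 0.16, limma adjusted p = 5.06e-04). ITGB4, the β4 integrin of hemidesmosomes, had 253, 232, 188 and 51.9 FPKM in 5637 and 0.0278 to 0.0664 FPKM in UM-UC3 (7.22 ± 0.38, limma adjusted p = 4.36e-05). ITGA6, its α partner, was expressed in both lines, with 253, 236, 154 and 139 FPKM in 5637 and 18.2, 18.2, 15.5 and 10.8 FPKM in UM-UC3 (3.54 ± 0.14, limma adjusted p = 1.91e-05). Over all 13 tested integrin subunits 6 were higher in 5637 and 4 in UM-UC3. ITGB6 and ITGB8, epithelial partners of αv that activate latent TGF-β, had 2.38 to 15.8 and 4.24 to 18.5 FPKM in 5637, while in UM-UC3 ITGB6 was listed at 0 and ITGB8 had at most 0.0301 FPKM. The 4 higher in UM-UC3 were ITGA5, the fibronectin receptor chain (2.88 to 4.4 FPKM in 5637, 15.5 to 20.9 in UM-UC3), ITGB3 (0.00552 to 0.167 FPKM in 5637 and 2.07 to 6.11 FPKM in UM-UC3), ITGB1 (158 to 222 FPKM in 5637 and 375 to 656 FPKM in UM-UC3) and ITGB5 (14.8 to 24.8 FPKM in 5637 and 26.8 to 31 FPKM in UM-UC3). The ITGB5 difference, -0.53 ± 0.18, did not pass without the pair at 0, 1 or 2 mM.

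Of 17 tested collagen chains 11 were higher in 5637 and 5 in UM-UC3, with a median difference of 1.59. COL17A1, the transmembrane collagen of hemidesmosomes, had 74.7, 36, 22.4 and 16.6 FPKM in 5637 and 1.67, 0.444, 0.108 and 0.111 FPKM in UM-UC3 (difference 4.47 ± 0.18, limma adjusted p = 2.09e-05). COL12A1, a fibril-associated collagen, had 38.4 to 94.6 FPKM in 5637 and 0.146 to 0.442 FPKM in UM-UC3. The basement membrane chains COL4A1 and COL4A2, which are neighbours with a shared promoter, went together. COL4A1 had 48.9, 46.5, 33.2 and 15 FPKM in 5637, against 2.68, 2.69, 1.5 and 0.706 FPKM in UM-UC3, and COL4A2 had 25.8 to 95.1 FPKM in 5637 and 2.71 to 5.14 FPKM in UM-UC3. Both chains had their lowest level at 4 mM in each line. On the side of UM-UC3, COL6A2, a chain of microfibrillar collagen VI, had 0.317, 0.298, 0.357 and 1.15 FPKM in 5637 and 14.3, 14.8, 18.8 and 18.1 FPKM in UM-UC3 (-3.54 ± 0.17, limma adjusted p = 3.25e-05). COL5A1 had 0 to 0.143 FPKM in 5637 and 1.65 to 4.25 FPKM in UM-UC3, COL13A1 had 0.38 to 1.3 FPKM in 5637 and 1.89 to 3.91 FPKM in UM-UC3, and COL3A1, whose values are given above, differed by -1.78 ± 0.58 and did not pass without the pair at 0, 1 or 2 mM. For COL3A1 the difference at 4 mM was positive, in the library with the traces of UM-UC3 genes.

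RB1 and the CDKN2A locus gave gaps in opposite directions. RB1 (chr13:48303744-48599436), the retinoblastoma protein that holds E2F factors in check, had 0.907, 1.32, 1.35 and 2.82 FPKM in 5637 and 22, 25.5, 27.5 and 30.9 FPKM in UM-UC3 (difference -3.44 ± 0.15, limma adjusted p = 2.30e-05). Without the pair at 4 mM the difference was -3.57. CDKN2A (chr9:21967753-21995301), which encodes the CDK4/6 inhibitor p16 and ARF, had 88.9, 53.4, 59.2 and 21.8 FPKM in 5637 and 0, 0.0925, 0 and 0 FPKM in UM-UC3 (5.64 ± 0.31, limma adjusted p = 4.88e-05). Its neighbours MTAP (chr9:21802636-21937651), which salvages methionine from methylthioadenosine, and CDKN2B (chr9:22002903-22009305), the p15 inhibitor, were likewise close to 0 in UM-UC3. MTAP had 30.6, 27.1, 22.8 and 17.4 FPKM in 5637, against 0.00857, 0.011, 0 and 0 FPKM in UM-UC3. CDKN2B had 2.06, 4.32, 9.81 and 43.8 FPKM in 5637, against 0.00598, 0.00558, 0 and 0.00755 FPKM in UM-UC3. On either side, DMRTA1 had 0.772 to 1.11 FPKM in 5637 and was listed at 0 in UM-UC3, ELAVL2, a neuronal RNA-binding protein, had 14 to 15.7 FPKM in 5637 and 0 to 0.112 FPKM in UM-UC3, and HACD4 had 0.155 to 1.07 FPKM in 5637 and was listed at 0 in UM-UC3. Within the same stretch of 9p, KLHL9 (chr9:21329665-21335404) had 7.17 to 9.33 FPKM in 5637 and 9.09 to 10.0 FPKM in UM-UC3, and the more distal FOCAD and MLLT3 had 14.8 to 22 and 6.2 to 7.71 FPKM in UM-UC3. Copy number was not measured here.

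In the list of RB, p16, cell cycle and bladder cancer driver genes 17 of 31 tested members were higher in 5637 and 8 in UM-UC3. CCND2, cyclin D2, had 0, 0, 0.0156 and 1.54 FPKM in 5637 and 50.1, 44.5, 36.2 and 18.8 FPKM in UM-UC3 (difference -4.84 ± 0.45 with all pairs and -5.46 without the pair at 4 mM). CCND1, cyclin D1, had 58.9, 50.7, 37.6 and 34.4 FPKM in 5637 and 114, 102, 76 and 66.6 FPKM in UM-UC3 (-0.97 ± 0.12, limma adjusted p = 7.25e-04), while CCND3, cyclin D3, had 13.8 to 22.5 FPKM in 5637 and 1.85 to 2.24 FPKM in UM-UC3 (2.66 ± 0.17, limma adjusted p = 7.95e-05). D-type cyclins thus lay on both sides. Cyclin E and E2F genes lay with 5637: CCNE2 had 39.4, 40.5, 53.2 and 34.1 FPKM in 5637 and 0.994, 0.902, 1.23 and 1.59 FPKM in UM-UC3, CCNE1 had 19.3 to 33.9 FPKM in 5637 and 6.61 to 7.64 FPKM in UM-UC3, and E2F1 had 10.7 to 16.7 FPKM in 5637 and 0.772 to 1.99 FPKM in UM-UC3. E2F3 and its 6p22 neighbours CDKAL1, a tRNA methylthiotransferase, and SOX4, a high-mobility-group transcription factor, all lay with 5637. E2F3 had 105, 97.9, 108 and 77.6 FPKM in 5637, against 6.88, 7.91, 7.27 and 6.5 FPKM in UM-UC3. CDKAL1 had 49.6 to 60.7 FPKM in 5637 and 4.82 to 5.48 FPKM in UM-UC3, and SOX4 had 106 to 157 FPKM in 5637 and 2.22 to 3.14 FPKM in UM-UC3. The 3 genes passed with limma adjusted p of at most 1.67e-05. The RB relative RBL1 had 13 to 17.9 FPKM in 5637 and 3.02 to 6.38 FPKM in UM-UC3, and the other relative RBL2 had 7.14 to 16.7 FPKM in 5637 and 27 to 36.8 FPKM in UM-UC3, so the family members differed in opposite directions (1.63 and -1.38). The inhibitor gene CDKN1B (p27) had 9.98 to 15.1 FPKM in 5637 and 27.6 to 39.2 FPKM in UM-UC3, and the kinase genes CDK4 and CDK6 differed by -0.71 ± 0.14 and 0.82 ± 0.17. CDKN1A, the inhibitor p21, was higher at each higher dose in both lines, with 18.1, 22.9, 68.7 and 208 FPKM in 5637 and 11.5, 19.7, 62.9 and 89.6 FPKM in UM-UC3, and its difference did not pass (0.54 ± 0.20, limma adjusted p = 0.0593).

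Of the other bladder cancer genes on the list, STAG2, the X-linked cohesin subunit, had 62.5, 62.6, 50.7 and 33.5 FPKM in 5637 and 6.44, 6, 7.25 and 12.9 FPKM in UM-UC3 (difference 2.56 ± 0.32, limma adjusted p = 7.65e-04). KDM6A, an X-linked histone demethylase, had 13.7 to 18.3 FPKM in 5637 and 3.31 to 4.94 FPKM in UM-UC3 (1.62 ± 0.15, limma adjusted p = 2.22e-04). HRAS had 102, 85.8, 78.5 and 36.3 FPKM in 5637 and 18, 17.3, 13.7 and 16.8 FPKM in UM-UC3 (2.04 ± 0.25, limma adjusted p = 7.54e-04), whereas NRAS did not pass, with a difference of -0.10 ± 0.12. FGFR3, the receptor kinase of papillary tumours, was low in both, at 1.11, 2.39, 4.15 and 7.97 FPKM in 5637 and 0.568, 1.21, 0.582 and 0.969 FPKM in UM-UC3 (1.23, not passing without the pair at 2 mM). PIK3CA, the catalytic PI3K subunit, had 2.94 to 4.37 FPKM in 5637 and 8 to 9.52 FPKM in UM-UC3 (-1.06 ± 0.15, limma adjusted p = 0.00121). MDM2, TSC1 and ARID1A did not pass, with differences of 0.29 ± 0.14, -0.30 ± 0.15 and 0.03 ± 0.17.

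Cancer-testis antigens, which are silent in most adult tissue outside the germ line, differed member by member. Of 8 tested members 2 were higher in 5637 and 5 in UM-UC3, with a median difference of -3.55. MAGEC2 had 0.0875, 0.216, 0.268 and 0.931 FPKM in 5637 and 21.5, 23.8, 24.1 and 27 FPKM in UM-UC3 (difference -4.22 ± 0.16, limma adjusted p = 1.73e-05). MAGEA10 had 0 to 0.532 FPKM in 5637 and 13.9 to 16 FPKM in UM-UC3. MAGEA6 had 3.06, 2.22, 2.58 and 3.8 FPKM in 5637 and 39.1, 29.7, 41.9 and 37.5 FPKM in UM-UC3 (-3.28 ± 0.14, limma adjusted p = 2.25e-05). In the other direction, MAGEA12 had 9.07, 8.83, 9.9 and 12.7 FPKM in 5637 and 0, 0, 0.0404 and 0 FPKM in UM-UC3 (3.45 ± 0.17, limma adjusted p = 3.20e-05), and MAGEA3 had 10.4 to 12.4 FPKM in 5637 and 4.56 to 6.58 FPKM in UM-UC3 (0.91 ± 0.15, limma adjusted p = 0.00221). MAGEA3, MAGEA6 and MAGEA12 are near-identical copies, so the split of reads among them is uncertain.

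HOX genes, which record the position of a cell along the body axis, differed between the lines in several clusters. Of 24 tested members 14 were higher in 5637 and 3 in UM-UC3. HOXA9 had 26.8, 28.5, 29.5 and 38.9 FPKM in 5637 and was listed at 0 in all UM-UC3 libraries (limma adjusted p = 1.32e-05). HOXA10 had 6.69, 6.13, 6.04 and 3.88 FPKM in 5637 and was also listed at 0 in UM-UC3. The posterior genes HOXD10 and HOXD11 had 6.51 to 13.8 and 5.91 to 10.4 FPKM in 5637, against at most 0.0223 and 0.0159 FPKM in UM-UC3. The 3 genes of UM-UC3 were HOXB2 with 0.364, 0.409, 0.339 and 1.72 FPKM in 5637 and 10.5, 9.57, 5.26 and 4.7 FPKM in UM-UC3 (difference -2.32 ± 0.34), HOXC13 with 0 to 0.127 FPKM in 5637 and 1.98 to 4.85 FPKM in UM-UC3 (-2.07 ± 0.23), and HOXD8 with 1.05 to 2.25 FPKM in 5637 and 2.89 to 4.99 FPKM in UM-UC3 (-0.92 ± 0.23), whose call was lost without the pair at 1 or 2 mM. HOXD8 and HOXD10 belong to 1 cluster and lay on opposite sides.

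Receptor kinases and their ligands were higher in 5637 for 22 of 34 tested members and in UM-UC3 for 4, with a median difference of 1.53. Among the ligands, AREG, the EGFR ligand amphiregulin, had 40.9, 53.6, 42.9 and 31.5 FPKM in 5637 and 0.132, 0.189, 0.0872 and 0.197 FPKM in UM-UC3 (difference 5.21 ± 0.17, limma adjusted p = 1.48e-05). TGFA, another EGFR ligand, had 19.5, 17.8, 17 and 16.2 FPKM in 5637 and 0.513, 1.06, 0.873 and 1.63 FPKM in UM-UC3 (3.23 ± 0.20, limma adjusted p = 6.47e-05). Their receptor EGFR had 49.2, 57, 52.5 and 50.5 FPKM in 5637 and 26.4, 20.8, 18.6 and 9.06 FPKM in UM-UC3 (1.52 ± 0.24, limma adjusted p = 0.00202), so 2 ligands and the receptor were higher in the same line. EFNB2, a membrane-bound ligand of Eph receptors, had 51.9, 64.9, 78 and 173 FPKM in 5637 and 2.17, 1.89, 3.83 and 4.69 FPKM in UM-UC3 (4.38 ± 0.18, limma adjusted p = 2.18e-05). FGFR2, a receptor whose epithelial splice form binds stromal FGFs, had 12.2 to 18 FPKM in 5637 and 0.208 to 0.482 FPKM in UM-UC3 (3.57 ± 0.16, limma adjusted p = 2.55e-05). The 4 higher in UM-UC3 were DDR2, a collagen receptor kinase, with 0.106, 0.107, 0.261 and 1.27 FPKM in 5637 and 12.4, 13.8, 12.6 and 7.69 FPKM in UM-UC3 (-3.18 ± 0.32, limma adjusted p = 3.49e-04), FGF2 with 0.803 to 1.85 FPKM in 5637 and 3.81 to 11.7 FPKM in UM-UC3, ROR1 with 3.53 to 5.75 FPKM in 5637 and 5.07 to 12.6 FPKM in UM-UC3, and MERTK with 1.22 to 4.1 FPKM in 5637 and 2.95 to 5.74 FPKM in UM-UC3. The last 2 had small gaps of -0.85 and -0.82.

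Of 10 tested surface antigens used as targets in urothelial carcinoma, 8 were higher in 5637 and none in UM-UC3. This list shares EPCAM with the junction list. Beyond EPCAM and CD24, the immune checkpoint ligand CD276 had 67.5, 45.3, 56.2 and 20.3 FPKM in 5637 and 8.8, 9.82, 9.52 and 4.72 FPKM in UM-UC3 (difference 2.31 ± 0.18, limma adjusted p = 1.35e-04). NECTIN4, another antibody target, averaged under 1 FPKM and was not tested.

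In the S100 and annexin families, calcium-binding proteins of epithelia and membranes, 13 of 19 tested members were higher in 5637 and 3 in UM-UC3. S100A2, a p63 target, had 213, 152, 96.3 and 24 FPKM in 5637 and 1.17, 0.268, 0.226 and 0.0618 FPKM in UM-UC3 (difference 6.1 ± 0.38, limma adjusted p = 6.83e-05), S100A6 had 54.4 to 141 FPKM in 5637 and 3.72 to 11.7 FPKM in UM-UC3, and ANXA3 had 18.1 to 48.1 FPKM in 5637 and 0 to 0.0802 FPKM in UM-UC3. ANXA6 went the other way, with 2.27, 1.95, 1.56 and 1.61 FPKM in 5637 and 30.6, 29.1, 17.2 and 9.3 FPKM in UM-UC3 (-2.86 ± 0.25, limma adjusted p = 2.08e-04), as did ANXA7 (-0.68) and ANXA4 (-0.85) by less than 2-fold. In the urokinase and protease list 10 of 20 were higher in 5637 and 6 in UM-UC3. SERPINE2, a thrombin and urokinase inhibitor, had 50.7, 48.1, 50.2 and 35.1 FPKM in 5637 and 0.385, 0.525, 1.01 and 3.97 FPKM in UM-UC3 (4.44 ± 0.39, limma adjusted p = 2.12e-04). TIMP3, a matrix-bound metalloproteinase inhibitor, had 48.9, 24.1, 18.2 and 7.07 FPKM in 5637 and 0.29, 0.398, 0.194 and 0 FPKM in UM-UC3 (4.11 ± 0.35, limma adjusted p = 1.84e-04). SERPINB2, the intracellular inhibitor PAI-2, had 3.63 to 36.5 FPKM in 5637 and at most 0.192 FPKM in UM-UC3. The urokinase receptor PLAUR was higher in 5637 (32.6 to 104 FPKM in 5637 and 17.4 to 44.9 FPKM in UM-UC3, 0.99 ± 0.13, limma adjusted p = 8.43e-04) and its ligand PLAU, urokinase, was higher in UM-UC3 (48.4, 69.8, 67 and 10.8 FPKM in 5637, 226, 170.3, 89.2 and 26.8 in UM-UC3, -1.28 ± 0.28, limma adjusted p = 0.00763). The receptor and its ligand thus had opposite signs.

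WNT and TGF-β ligands and regulators were split, with 21 of 35 tested members higher in 5637 and 10 in UM-UC3. FZD6, a WNT receptor, had 32.8, 48, 57.7 and 67.1 FPKM in 5637 and 0 to 0.0488 FPKM in UM-UC3 (difference 5.63 ± 0.19, limma adjusted p = 1.48e-05). INHBA, the activin βA chain, had 34.8, 28.5, 19.5 and 9.04 FPKM in 5637 and at most 0.0352 FPKM in UM-UC3 (4.41 ± 0.31, limma adjusted p = 1.01e-04). BMP2, a bone morphogenetic protein, had 5.78 to 7.41 FPKM in 5637 and 0.0735 to 0.327 FPKM in UM-UC3, and DKK1, a secreted WNT antagonist, had 6.75 to 25.5 FPKM in 5637 and 0.0617 to 0.315 FPKM in UM-UC3. WNT5B had 2.51, 2.49, 3.08 and 1.97 FPKM in 5637 and 27.8, 23, 15.4 and 9.91 FPKM in UM-UC3 (-2.42 ± 0.23, limma adjusted p = 2.90e-04). TGFBR3, the TGF-β co-receptor betaglycan, had 0.224 to 0.666 FPKM in 5637 and 3.34 to 4.14 FPKM in UM-UC3 (-1.75), and NOG, the BMP antagonist noggin, had 0.987 to 2.4 FPKM in 5637 and 3.22 to 5.45 FPKM in UM-UC3 (-0.98). BMP2 and its antagonist NOG thus lay on opposite sides.

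Among 20 tested cytokines and chemokines 10 were higher in 5637 and 4 in UM-UC3. IL1A, interleukin-1α, had 79.6, 35.2, 22.7 and 8.74 FPKM in 5637 and 0 to 0.192 FPKM in UM-UC3 (difference 4.73 ± 0.47, limma adjusted p = 3.42e-04). CXCL5, a neutrophil chemokine, had 39.1, 21.6, 24.9 and 12 FPKM in 5637 and at most 0.0190 FPKM in UM-UC3 (4.55 ± 0.27, limma adjusted p = 5.83e-05). PDGFA and IL11, a growth factor and an IL-6 family cytokine, had 10.3 to 15.6 and 5.37 to 11.9 FPKM in 5637, against 0.857 to 1.93 and 0.306 to 1.02 FPKM in UM-UC3. The 4 of UM-UC3 were IL18, an inflammasome-processed cytokine, with 16.5, 15.9, 15.5 and 9.82 FPKM in 5637 and 67.8, 74.4, 77.1 and 88.4 FPKM in UM-UC3 (-2.35 ± 0.20, limma adjusted p = 1.88e-04), TSLP, CSF1 and CCL2. CCL2, the monocyte chemokine, was listed at 0 in 5637 at 0, 1 and 2 mM with 0.245 FPKM at 4 mM, and had 21.4, 11, 3.17 and 0.453 FPKM in UM-UC3. CSF1, the macrophage growth factor, had 4.29, 2.52, 2.4 and 1.25 FPKM in 5637 and 36.3, 22.2, 6.79 and 1.86 FPKM in UM-UC3, so the gaps of both were narrow at 4 mM.

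Of 17 tested genes of MHC class I presentation 6 were higher in 5637 and 4 in UM-UC3, shares close to those of all tested genes, with a median difference of 0.12. HLA-C had 17.3, 17.9, 27.8 and 30.8 FPKM in 5637 and 58.2, 64.2, 66.5 and 77.1 FPKM in UM-UC3 (difference -1.5 ± 0.15, limma adjusted p = 3.29e-04), and HLA-B had 12.3 to 17 FPKM in 5637 and 23.8 to 34.5 FPKM in UM-UC3 (-0.92 ± 0.16, limma adjusted p = 0.00275), though reads can be shared among class I genes. The chaperones CALR and CANX were also higher in UM-UC3 (-1.5 and -1.15). ERAP2, a peptide-trimming protease, and TAP2, a peptide transporter subunit, were higher in 5637 (1.08 and 0.82), as were TAPBP (0.57) and B2M (0.56), of which TAPBP did not pass without the pair at 2 mM and B2M without that at 1 or 2 mM. No MHC class II gene reached the minimum, with summed levels of 0.220 to 0.281 FPKM in 5637 and 1.77 to 2.51 FPKM in UM-UC3. Of 24 tested interferon-stimulated genes 7 were higher in 5637 and 8 in UM-UC3. ISG15, the ubiquitin-like modifier, had 20.4, 15.8, 17.3 and 42.8 FPKM in 5637 and 1.97, 2, 1.71 and 6.56 FPKM in UM-UC3 (2.66 ± 0.14, limma adjusted p = 3.68e-05), while UBE2L6, its conjugating enzyme, had 5.48, 4.31, 4.33 and 1.61 FPKM in 5637 and 22.3, 23.5, 17.1 and 11.3 FPKM in UM-UC3 (-2.01 ± 0.15, limma adjusted p = 1.12e-04). The modifier and its enzyme were thus on opposite sides. SAMD9 (6.02 to 44.3 FPKM in 5637 and 1.19 to 3 FPKM in UM-UC3) and IRF7 (3.69 to 38.7 FPKM in 5637 and 0.984 to 2.55 FPKM in UM-UC3) were higher in 5637, and IFI35 in UM-UC3 (-1.93).

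NRF2 targets and carbonyl reductases did not pass more often than all tested genes, with 6 of 23 higher in 5637 and 7 in UM-UC3. ALDH1A3, which makes retinoic acid, had 497, 259.7, 142 and 37.6 FPKM in 5637 and 0.0861, 0.103, 0.0363 and 0.0547 FPKM in UM-UC3 (difference 7.26 ± 0.54, limma adjusted p = 1.27e-04). Its relative ALDH1A1 had the reverse pattern, with 0, 0, 0.0482 and 2.13 FPKM in 5637 and 83.3, 67.3, 32.4 and 10.6 FPKM in UM-UC3 (-4.84 ± 0.72, limma adjusted p = 0.00159). Without the pair at 4 mM its difference was -5.83 (limma adjusted p = 1.27e-05). ALDH1A3 was thus the higher of this pair in 5637 and ALDH1A1 in UM-UC3, and each was lower at each higher dose in that line. HMOX1, haem oxygenase 1, had 1.02, 0.817, 3.04 and 10.5 FPKM in 5637 and 31.2, 48.1, 65.8 and 104 FPKM in UM-UC3 (-4.0 ± 0.25, limma adjusted p = 6.63e-05). ALDH3B1 had 0.994 to 2.33 FPKM in 5637 and 5.86 to 27.3 FPKM in UM-UC3, GCLM and ME1 differed by -0.99 and -1.29, and on the other side CBR1, a carbonyl reductase, had 25.5 to 58.5 FPKM in 5637 and 7.84 to 11.5 FPKM in UM-UC3, with AKR1C3 at 1.67 and PGD at 1.18. Of 15 tested glutathione transferases and UDP-glucuronosyltransferases 5 were higher in 5637 and 6 in UM-UC3. GSTP1, a major transferase of epithelia, had 361, 314, 357 and 205 FPKM in 5637 and 139, 186, 158 and 166 FPKM in UM-UC3 (0.90 ± 0.21, limma adjusted p = 0.00976), a call lost without the pair at 2 mM. UGT1A6 and MGST2 were at or near 0 in UM-UC3, while in 5637 UGT1A6 had 15.4, 6.39, 5.25 and 0.59 FPKM and MGST2 had 8.3, 8.71, 7.88 and 2.78 FPKM. GSTM4 had 1.02 to 2.34 FPKM in 5637 and 9.76 to 15.7 FPKM in UM-UC3 (-2.19 ± 0.24, limma adjusted p = 4.43e-04).

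RPMI 1640 and basal MEM differ in their amino acid content, so genes of non-essential amino acid synthesis were read as a group, in which 7 of 21 tested members were higher in 5637 and 6 in UM-UC3, close to the shares of all tested genes. GLUL, glutamine synthetase, had 68.9, 72.5, 40.4 and 49.8 FPKM in 5637 and 4.65, 3.69, 2.69 and 3 FPKM in UM-UC3 (difference 3.69 ± 0.13, limma adjusted p = 1.67e-05). ASS1, argininosuccinate synthetase, which makes arginine from citrulline, had 18.4, 14, 35.4 and 14.2 FPKM in 5637 and 0.214, 0.0312, 0.0133 and 0.023 FPKM in UM-UC3 (4.23 ± 0.26, limma adjusted p = 6.41e-05). SHMT1, the cytosolic serine hydroxymethyltransferase, was higher in 5637 (13.2 to 17.2 FPKM in 5637 and 1.11 to 4.43 FPKM in UM-UC3), and its mitochondrial counterpart SHMT2 was higher in UM-UC3 (43.5 to 61.4 FPKM in 5637 and 81.9 to 121 FPKM in UM-UC3), with differences of 2.23 and -1.0. PYCR1, which completes proline synthesis, had 10.9, 7.61, 10.1 and 13.1 FPKM in 5637 and 43.4, 54, 46.3 and 28.7 FPKM in UM-UC3 (-1.94 ± 0.25, limma adjusted p = 9.52e-04). GOT1 and OAT, transaminases, were higher in UM-UC3 (-1.87 and -0.63). ASNS, asparagine synthetase, differed by -2.03 over the 4 pairs and did not pass (limma adjusted p = 0.0571). Its gap was wide in the DMSO pair and changed sign over the doses, with the values given below. Whether the medium had a part in any of these differences was not tested. For cholesterol synthesis and uptake 11 of 25 tested genes were higher in 5637 and 3 in UM-UC3. EBP, a sterol isomerase, had 79.5, 59.9, 51.1 and 50.3 FPKM in 5637 and 5.81, 5.49, 3.06 and 2.59 FPKM in UM-UC3 (3.58 ± 0.14, limma adjusted p = 2.09e-05), and ACAT2 differed by 1.72. SREBF1, SREBF2 and SC5D, the 3 higher in UM-UC3, differed by -0.85, -0.84 and -0.55, and each lost its call without some pair.

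Cytosolic ribosomal proteins, the structural proteins of the translating ribosome, lay toward UM-UC3. Of 74 tested members 2 were higher in 5637 and 62 in UM-UC3, with a median difference of -1.16, and their summed FPKM was 18998 to 22848 in 5637 and 40936 to 60482 in UM-UC3. RPL4 had 409, 361, 336 and 326 FPKM in 5637 and 1724, 1970.4, 1516 and 1793 FPKM in UM-UC3 (difference -2.29 ± 0.15, limma adjusted p = 7.88e-05). RPL26 had 322, 235, 243 and 281 FPKM in 5637 and 1183, 1222, 1289 and 1703 FPKM in UM-UC3 (-2.31 ± 0.17, limma adjusted p = 1.18e-04), and RPL10 and RPS24 differed by -1.83 ± 0.15 and -1.81 ± 0.15. The 2 members of 5637 were RPL32, with 418, 391, 382 and 293 FPKM in 5637 and 186, 179, 189 and 251 FPKM in UM-UC3 (0.88), and RPL35, with 581, 554, 447 and 269.5 FPKM in 5637 and 264, 271, 221 and 320.3 FPKM in UM-UC3 (0.73). RPL32 did not pass without the pair at 2 mM nor RPL35 without that at 0, 1 or 2 mM, and with rescaled libraries 1 of the 2 passed. Many ribosomal protein genes have processed pseudogenes that can take reads. Of 31 proteasome subunits 12 were higher in 5637 and 1 in UM-UC3, and none was separated. PSMD12 had 46.7, 43.9, 35.1 and 30.4 FPKM in 5637 and 15.8, 15.7, 12.9 and 14.8 FPKM in UM-UC3 (1.33 ± 0.14, limma adjusted p = 3.74e-04), PSMB7, PSMD14 and PSMB2 differed by 1.08, 0.98 and 0.99, and PSMB6 by -0.89. Without the pair at 4 mM 22 subunits were higher in 5637.

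Of 720 tested long non-coding RNAs 59 were separated toward 5637 and 113 toward UM-UC3, and 84 and 161 without the pair at 4 mM. UCA1 (urothelial cancer associated 1), first described in bladder carcinoma, had 164, 186, 298 and 53.4 FPKM in 5637 and 0.0317, 0.0474, 0.0703 and 0.0404 FPKM in UM-UC3 (difference 7.16 ± 0.37, limma adjusted p = 3.97e-05). LINC02582 and LINC00511 had 46.6 to 90.8 and 25.1 to 33.5 FPKM in 5637, against 0.193 to 0.886 and 0.105 to 0.262 FPKM in UM-UC3. NEAT1, the scaffold of nuclear paraspeckles, had 8.27, 13.5, 35.1 and 55.7 FPKM in 5637 and 193, 157, 406 and 679 FPKM in UM-UC3 (-3.73 ± 0.19, limma adjusted p = 4.0e-05), and was higher at each step from 1 mM on in both. Its 5637 level at 4 mM also comes from the library with the traces of UM-UC3 genes. Of the small nucleolar RNA hosts, SNHG29 had 72.6, 53.1, 74.9 and 102 FPKM in 5637 and 699.8, 759, 739 and 867 FPKM in UM-UC3, and SNHG5 had 2.97 to 5.76 FPKM in 5637 and 38.3 to 87.2 FPKM in UM-UC3. LINC00958 had 0.0207, 0, 0.109 and 1.68 FPKM in 5637 and 60.1, 59.2, 53.9 and 56.4 FPKM in UM-UC3, and LINC01029 had 0 to 1.41 FPKM in 5637 and 30.6 to 54.9 FPKM in UM-UC3.

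The balance of the differences varied with the chromosome. The median difference of tested protein-coding genes was highest on chromosome 9 (0.81 over 467 genes), 21 (0.74 over 110) and 20 (0.50 over 317), and lowest on chromosome 10 (-0.46 over 437), 12 (-0.40 over 600) and 5 (-0.38 over 511). In windows of 25 neighbouring tested protein-coding genes, the highest median was 2.17, on chromosome 3 between 9933816 and 13880071 (CRELD1 to WNT7A), where 24 of 25 genes passed higher in 5637 and none higher in UM-UC3. WNT7A, a WNT ligand at its end, had 30.3, 26, 24.4 and 3.26 FPKM in 5637 and 0.00696, 0, 0 and 0.0128 FPKM in UM-UC3. On chromosome 9, the window 38392702 to 74952912 (ALDH1B1 to C9orf40) had a median of 1.66 with 20 genes higher in 5637, and the window 128633661 to 129881828 (WDR34 to USP20) a median of 1.45 with 24. The lowest medians were on chromosome 12, -1.46 between 56595596 and 57750219 (BAZ2A to TSPAN31, which holds DDIT3) and -1.43 between 53295291 and 55830824 (PFDN5 to DNAJC14), each with 19 genes higher in UM-UC3. On chromosome 11 all 25 genes between 111878935 and 117413266 (C11orf1 to CEP164) had the higher mean in UM-UC3, 20 of them past the threshold. Over the 3 lower doses these 6 chromosomes had medians of 0.77 (9), 0.82 (21), 0.47 (20), -0.44 (10), -0.42 (12) and -0.41 (5), and 24 of the 25 genes on chromosome 11 had the higher mean in UM-UC3. Such blocks describe expression, and copy number was not measured.

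**Figure D4:**
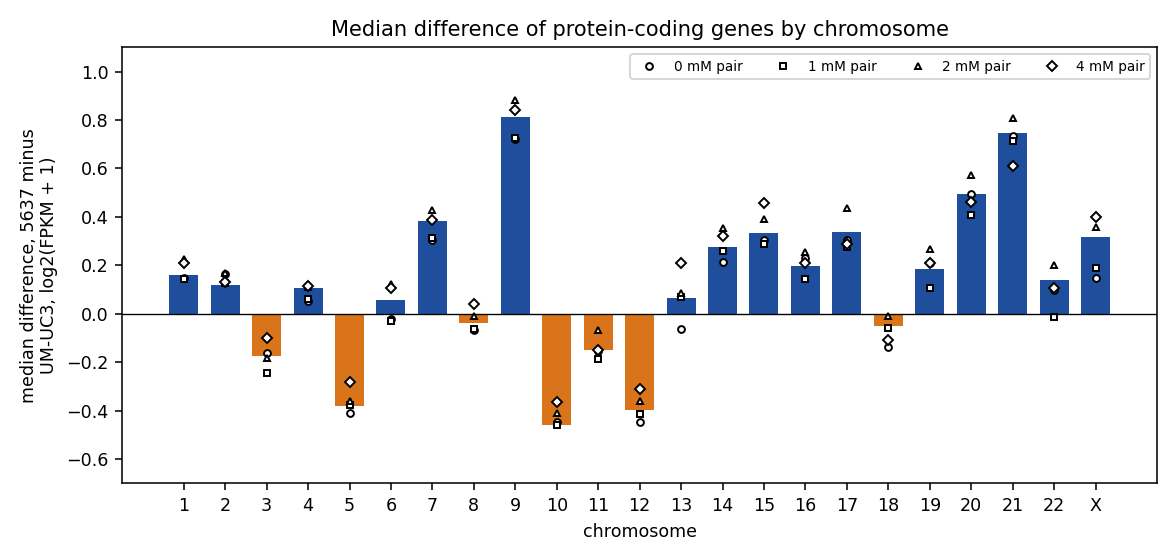
Median difference by chromosome: the x axis is the chromosome, the y axis is the median of 5637 minus UM-UC3 in log2(FPKM + 1) over its tested protein-coding genes, the bars are the median of the mean differences and the markers the medians of the 4 pairs. Chromosome 9 has the highest bar (0.81) and chromosome 10 the lowest (-0.46).

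The gap between the lines changed with dose for many genes. In a limma fit with a line by dose term, 1936 genes (15.3%) shifted toward 5637 with rising dose and 1313 (10.4%) toward UM-UC3. Among the 2506 separated genes the gap widened for 235, narrowed for 325 and did not pass for 1946. These counts rest on the 4 mM libraries: 452 and 218 genes passed when 5637 at 4 mM was left out, and 41 and 22 when UM-UC3 at 4 mM was left out. The widest opening was that of CDKN2B, with the values given above and a gap change from 0 to 4 mM of 3.91 ± 0.31 (limma adjusted p = 3.15e-04). MAP2, a neuronal microtubule-associated protein, had 1.6, 6.16, 13.6 and 28.8 FPKM in 5637 and 0 to 0.0741 FPKM in UM-UC3 (3.48 ± 0.50). BEX2, a small X-linked adaptor, had 2.93, 4.12, 8.95 and 39.5 FPKM in 5637 and 0 to 0.0942 FPKM in UM-UC3 (3.45 ± 0.39), and TP53INP1, a stress-induced protein, had 1.77, 2.97, 8.61 and 21 FPKM in 5637 and 0 to 0.0137 FPKM in UM-UC3 (3.1 ± 0.37). In these genes the 5637 level was higher at each higher dose while UM-UC3 stayed near 0. Toward UM-UC3, SPX, a peptide hormone precursor, had 0, 0, 0 and 0.312 FPKM in 5637 and 1.3, 3.62, 15.2 and 29.7 FPKM in UM-UC3 (-3.42 ± 0.58), and TIMP1, a metalloproteinase inhibitor, had 13.8, 10.5, 12 and 17.2 FPKM in 5637 and 42.4, 49.3, 109.8 and 390.3 FPKM in UM-UC3 (-2.94 ± 0.43).

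The gaps that closed most were mostly those of genes with less RNA in 5637 at higher doses. FST, the activin antagonist follistatin, had 68.1, 29.5, 5.44 and 2.22 FPKM in 5637 and at most 0.0174 FPKM in UM-UC3 (gap change -4.53 ± 0.71). MPPED2, a metallophosphoesterase, had 44.5, 24.2, 9.44 and 1.37 FPKM in 5637 and at most 0.00890 FPKM in UM-UC3 (-4.33 ± 0.31, limma adjusted p = 2.22e-04). IL1B, interleukin-1β, had 52.1, 15.9, 7.77 and 2.06 FPKM in 5637 and at most 0.0234 FPKM in UM-UC3 (-4.0 ± 0.45). Each of the 3 was lower at each higher dose in 5637. SLC38A5, a glutamine and serine transporter, had 38.7, 6.44, 1.93 and 1.08 FPKM in 5637 (-3.93 ± 1.09), and ANXA8L1, a near-identical copy of ANXA8, had 63.8, 73.6, 55 and 4.07 FPKM in 5637 (-3.85 ± 1.04), with at most 0.0468 and 0.0558 FPKM in UM-UC3. ALDH1A1, whose values are given above, closed from the other side (4.69 ± 0.50). Where the 0 or 4 mM library of a line was left out, its slope over the remaining doses was extended to the dose left out. Such an extended value is not a measured change from 0 to 4 mM. For ALDH1A1 without the 5637 library at 4 mM it was 3.13 (limma adjusted p = 0.0199). Of these 12 genes, CDKN2B and MPPED2 passed whichever library was left out. SLC38A5 and ANXA8L1 did not pass when any 1 of the 4 UM-UC3 libraries was left out. For SLC38A5 the extended value moved with the 5637 library left out. It was -2.19 without 0 mM (limma adjusted p = 0.0255) and -7.47 without 4 mM (limma adjusted p = 0.00246). With UM-UC3 at 4 mM left out, the calls of MAP2, BEX2, TP53INP1, TIMP1, ALDH1A1, FST and IL1B were lost as well. Without the 5637 library at 4 mM those of SPX and ANXA8L1 were lost. Their extended values were -3.83 (limma adjusted p = 0.0533) and -0.39 (limma adjusted p = 0.644).

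**Figure D5:**
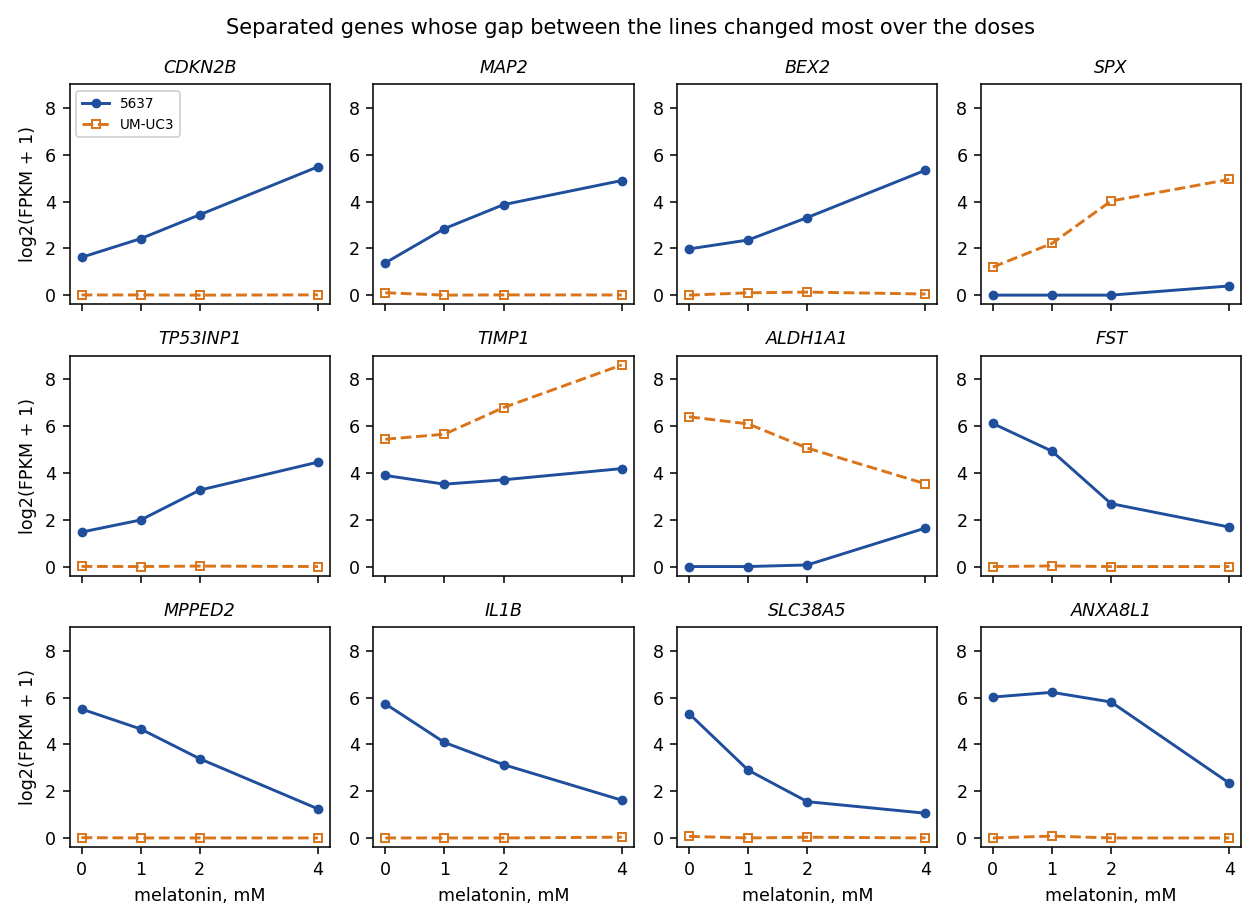
Genes whose gap changed most with dose: in each panel the x axis is the melatonin dose in mM and the y axis is the level in log2(FPKM + 1), with a solid line for 5637, a dashed line for UM-UC3 and 1 library per point. CDKN2B in 5637 reaches 43.8 FPKM at 4 mM and MPPED2 in 5637 drops to 1.37 FPKM.

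The sign of the DMSO difference changed at another dose for 4006 of the 12649 tested genes, of which 83 were 2-fold apart each way, and the 6 with the largest DMSO difference are given here. ASNS, asparagine synthetase, a target of the amino acid response, had 5.09, 26, 166 and 596 FPKM in 5637 and 162, 188, 289.7 and 515 FPKM in UM-UC3. The difference was -4.74 in the DMSO pair and 0.21 at 4 mM, and the mean over 4 pairs did not pass (limma adjusted p = 0.0571). MMP1, interstitial collagenase, had 118, 19.6, 7.56 and 24.8 FPKM in 5637 and 2.21, 2.28, 14.5 and 37.7 FPKM in UM-UC3, higher in 5637 at 0 and 1 mM and higher in UM-UC3 at 2 and 4 mM. MAP1B, a microtubule-associated protein, had 0.716, 2.93, 12.6 and 53.5 FPKM in 5637 and 35.5, 37.4, 45.9 and 51.9 FPKM in UM-UC3, and TMEFF1, a transmembrane protein with follistatin-like domains, had 10.1, 9.22, 8.28 and 0.225 FPKM in 5637 and 0, 0, 1.43 and 0.468 FPKM in UM-UC3. MAP1B and TMEFF1 passed over 4 pairs (limma adjusted p = 0.0218 and 0.0232), and neither passed without the pair at 0, 1 or 2 mM. The read-through gene TMEM189-UBE2V1 and AP002990.1 also changed sign, but both overlap other genes, so their reads are uncertain.

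Most markers of other cell types averaged under 1 FPKM, with exceptions in both lines. Of 15 leukocyte markers only CD68, a lysosomal glycoprotein, reached the minimum, with 0.467, 0.067, 1.09 and 4.85 FPKM in 5637 and 106, 63.8, 61 and 53 FPKM in UM-UC3 (difference -5.05 ± 0.48, limma adjusted p = 2.81e-04), and the other 14 were not tested, so CD68 stood without the rest of the list. Of 10 endothelial markers 2 were tested, TIE1 with 0, 0, 0 and 0.155 FPKM in 5637 and 7.2, 2.99, 1.61 and 1.21 FPKM in UM-UC3 and ROBO4 with 0 to 0.164 FPKM in 5637 and 0.776 to 3.87 FPKM in UM-UC3. Of 14 fibroblast and smooth muscle markers 4 were tested, of which COL1A1, the main fibrillar collagen, was higher in 5637 (6.34 to 9.68 FPKM in 5637 and 0.00775 to 0.103 FPKM in UM-UC3) and COL3A1 and ACTA2, smooth muscle actin, in UM-UC3. All 4 tested neuronal and neuroendocrine genes, CHGB, SYP, SNAP25 and ENO2, were higher in UM-UC3, with differences of -1.65, -1.69, -1.34 and -1.92. The part of other cells in any difference was not tested.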

How the data were processed

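Poly(A) RNA of 5637 and UM-UC3 cells was sequenced as 1 library per line and dose, 8 in all. The labels name CASAVA 1.8, FastQC, Trimmomatic, HISAT2 and StringTie with the build GRCh38, but neither the annotation release nor the use of strand in counting is stated in the sources used here. The RNA kit is named differently in the labels and the study's methods. The authors deposited a sheet of normalized values for 60612 genes that does not name its unit, taken here as FPKM, and no read counts were used, so no counting interval can be given. A second sheet with the same values for fewer genes and a sheet of the authors' correlations between samples were not used.

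Each column was mapped to its sample by name. Genes averaging at least 1 FPKM over the 8 libraries were kept, log2(FPKM + 1) was formed, and limma 3.58.1 in R 4.3.3 fitted line with dose as a block of 4 levels (3 residual degrees of freedom, moderated with trend and robust settings, Benjamini-Hochberg threshold 0.05). A second fit with line, dose in mM and their product (4 residual degrees of freedom) gave the change of the gap from 0 to 4 mM. The scripts were tested on simulated data. Genes of chromosome Y, XIST and TSIX were left out. Promoter windows came from a RefSeq table of GRCh38.p14 and were searched for CAGGTG and CACCTG on both strands. Figures were drawn with matplotlib 3.10.9.

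The lines, gene lists and tests were chosen with earlier results of these data known. The text names the 12 protein-coding genes per direction with the largest smallest-of-4 difference, the 4 members per direction and list with the smallest p, the members of the RB, p16 and cell cycle list, the 6 genes whose gap widened and the 6 whose gap narrowed most, and the 6 with the largest DMSO difference that changed sign. Some genes that these rules name are not reported here. CDH1, CLDN7, CRB3, AP1M2, GRHL2, TP63, PPARG, CDH2, EMP3, EGFR, WNT7A, the neighbours of CDKN2A and the long non-coding RNAs were added after their values were seen. Alternatives were a pseudocount of 0.1, a minimum mean of 5 FPKM, a 4-fold or sign-only rule, rescaled libraries, dose ranks, limma's test against a 2-fold minimum, and leaving out each pair or library.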

Additional observations from a re-analysis of the deposited data

Results flagged for a closer look

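The slope of expression over melatonin dose differed between the lines in the line by dose term of the limma fit, and this is what singled out the following results. The term passed for 1936 genes that shifted toward 5637 and for 1313 that shifted toward UM-UC3. Among separated genes the gap opened most toward 5637 for CDKN2B (3.91 on the log2 scale from 0 to 4 mM), MAP2 (3.48), BEX2 (3.45) and TP53INP1 (3.1), and toward UM-UC3 for SPX (-3.42) and TIMP1 (-2.94). It closed most for ALDH1A1 (4.69), the member of this set with the higher level in UM-UC3, and for FST (-4.53), MPPED2 (-4.33), IL1B (-4.0), SLC38A5 (-3.93) and ANXA8L1 (-3.85), which had the higher levels in 5637. Each term rests on 8 libraries with 1 at 4 mM per line, and the 5637 library at 4 mM is the one with traces of UM-UC3 genes. Of all tested genes, 39 passed in this fit whichever library was left out.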

How the results depend on the processing

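Against a 2-fold minimum in limma's test, 1210 genes passed higher in 5637 and 718 higher in UM-UC3. With a mean of at least 5 FPKM, 989 and 619 genes were separated at every dose and 1633 and 1311 were 2-fold apart in the DMSO pair. A 4-fold rule left 481 and 202 separated genes, and a rule of 1 sign with no fold gave 4758 and 3882. Leaving out each pair in turn gave 3208 to 4749 genes higher in 5637 and 2512 to 3987 higher in UM-UC3. The gap over dose moved most, to 1082 genes toward 5637 and 578 toward UM-UC3 with dose ranks, and to 41 to 2091 and 22 to 1494 genes when each library was left out, lowest without UM-UC3 at 4 mM. The cause was not tested. Of 217 named genes, 200 kept the same call with each pair left out and with a pseudocount of 0.1. A call is the direction of a gene that passed, or no pass. No call reversed, but ARID1A, which did not pass, had differences of -0.10 to 0.14 with a pair left out. ASNS (limma adjusted p = 0.00875) and TMEM189-UBE2V1 (0.0207) passed only without the pair at 4 mM. Of 60 list counts, 3 moved by over 1.5 times under rescaling or without the 4 mM pair, the second an alternative chosen after seeing the data. No paired analysis by replicate number was possible because the labels give no replicate numbers, and dose served as the pairing. With no counts, detection limits of genes listed at 0 are unknown.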

Other observations

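Among the genes that were listed at 0 in all 4 UM-UC3 libraries and averaged at least 5 FPKM in 5637, chosen here after their values were seen, several act in epithelia. FXYD3, a regulator of the sodium pump, had 16.7, 5.62, 6.08 and 3.25 FPKM in 5637 at 0, 1, 2 and 4 mM. WFDC2, the secreted whey acidic protein HE4, had 16.3, 15.1, 20.1 and 8.95 FPKM. EVPL, the desmosomal envelope protein envoplakin, had 11.4, 8.3, 7.43 and 4.24 FPKM, and GJB5, a connexin of stratified epithelia, had 12.2, 6.74, 7.04 and 1.42 FPKM. The group also held genes of other functions, with 10.6, 9.81, 10.6 and 5.53 FPKM for SYK, the spleen tyrosine kinase, and 59.6, 8.11, 4.58 and 3.29 FPKM for FABP4, a fatty acid binding protein of adipocytes and urothelium.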
